A study of Mus musculus with 8 samples.

Results

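The 10 genes described here encode the machinery that cuts cytosolic proteins into peptides, carries the peptides into the endoplasmic reticulum and loads them there onto MHC class I molecules, which then display them at the cell surface. They are H2-K1, H2-D1, B2m, Tap1, Tap2, Tapbp, Nlrc5, Psmb8, Psmb9 and Erap1. They were chosen for their function in this pathway, with earlier results of these data known. All 10 were found among the 32903 genes to which the transcripts were summed. RNA from isolated mouse Kupffer cells, macrophages that reside in the liver, was sequenced to compare cells of fibrotic livers with cells of naive livers. The 3 CCl4 libraries came from wild-type mice given the liver toxin carbon tetrachloride in corn oil, 0.75 mL/kg on 3 occasions each week over 8 weeks, and their tissue is labelled as liver fibrosis. The 5 naive libraries came from untreated wild-type mice, so no vehicle-treated group was part of the comparison. Strain, age and the way the cells were isolated are not given in the labels used here. The CCl4 replicates are numbered 1, 2-4 and 3, and the labels do not say whether 2-4 was a pool, nor whether libraries came from different animals. The p-values therefore reflect only how much these libraries varied, which may be technical.

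Most nucleated cells show fragments of their own proteins on class I molecules, a heavy chain paired with beta-2 microglobulin, to CD8 T cells. The proteasome makes the fragments, the TAP transporter moves them, and tapasin holds empty class I molecules beside it while they are loaded. Interferon gamma is known to raise most of these genes together, through the transcription factor IRF1 and the coactivator NLRC5, and macrophages are among the cells that use the pathway both for their own proteins and for engulfed ones.

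Values were in TPM, a transcript abundance corrected for length and expressed relative to the library total. The number of reads behind a value cannot be recovered from it, so counting precision is unknown. Protein-coding genes held 45.5% to 56.0% of the TPM of a library, and 14059 to 15063 genes reached 1 TPM. Of 12 Kupffer cell markers, 11 were lower in the CCl4 libraries, where they summed to 840 to 1027 TPM, against 3536 to 6613 TPM in the naive libraries. All 15 markers of sinusoidal endothelium were lower, at 305 to 757 TPM in the CCl4 libraries and 7334 to 13721 TPM in the naive libraries, and 4 of 7 tested monocyte markers were higher, at 688 to 1015 TPM in the CCl4 libraries and 137 to 243 TPM in the naive libraries. Marker sums of stellate cells, B cells and neutrophils overlapped between the groups, and Ly6g of neutrophils was listed at 0 in all 8 libraries. Of 9 tested stellate cell markers 2 were higher, among them Col1a1, and 3 lower, among them Ecm1 (3 and 4 without naive replicate 5). The overlap of that sum therefore does not mean that its genes were alike. Of 6 B cell markers 1 was lower, as was 1 of 3 tested neutrophil markers (0 without naive replicate 5). By the same fit, described below, 15.3% of all genes tested were called higher and 22.5% lower. The defining genes Clec4f, Clec4g and Ccr2 were detected in both groups. Their part in the results below was not tested, and in bulk RNA fewer cells of a type and less RNA per cell cannot be told apart. Naive replicate 5 stood apart from the other naive libraries, with the highest monocyte marker sum of the 5 and a class II sum of 10519 TPM, against 2922 to 3305 TPM in naive replicates 1 to 4. Calls and counts that changed without it are given both ways.

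The class I promoters are shown first because they carry the shared element through which these genes are known to respond to NF-kappaB, to interferon-regulated factors and to NLRC5. In mouse and human class I genes this element holds a kappaB site, an interferon response site and, closer to the start, a module whose X box contains a cyclic AMP response element and whose Y box is a reversed CCAAT box. The windows are the 250 bases upstream of a RefSeq start of the gene, on GRCm38.p6, written 5′ to 3′ along the gene. Capitals mark matches, on either strand, to the kappaB consensus, to the IRF core AANNGAAA, to the CRE core TGACG and to the CCAAT box CCAAT. Among 32851 such windows of mouse genes these motifs were present in 7.25%, 21.3%, 17.8% and 33.8%, in that order.
H2-K1, chr17:34000334-34000583, minus strand: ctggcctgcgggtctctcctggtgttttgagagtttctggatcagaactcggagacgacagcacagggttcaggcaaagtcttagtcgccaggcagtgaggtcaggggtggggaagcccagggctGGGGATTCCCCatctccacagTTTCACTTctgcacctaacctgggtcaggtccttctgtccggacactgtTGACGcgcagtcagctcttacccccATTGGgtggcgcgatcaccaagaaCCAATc
H2-D1, chr17:35262844-35263093, plus strand: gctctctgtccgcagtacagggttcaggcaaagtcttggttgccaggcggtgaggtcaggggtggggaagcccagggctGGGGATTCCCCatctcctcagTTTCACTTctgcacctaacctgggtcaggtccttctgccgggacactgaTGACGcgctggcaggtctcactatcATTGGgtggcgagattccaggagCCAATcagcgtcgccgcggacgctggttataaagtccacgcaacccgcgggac
B2m, chr2:122147437-122147686, plus strand: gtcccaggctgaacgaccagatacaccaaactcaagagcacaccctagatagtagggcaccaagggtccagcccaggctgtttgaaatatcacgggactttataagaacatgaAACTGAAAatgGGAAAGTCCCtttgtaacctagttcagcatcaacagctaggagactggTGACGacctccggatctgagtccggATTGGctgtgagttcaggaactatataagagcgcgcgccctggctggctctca
Tap1, chr17:34187306-34187555, plus strand: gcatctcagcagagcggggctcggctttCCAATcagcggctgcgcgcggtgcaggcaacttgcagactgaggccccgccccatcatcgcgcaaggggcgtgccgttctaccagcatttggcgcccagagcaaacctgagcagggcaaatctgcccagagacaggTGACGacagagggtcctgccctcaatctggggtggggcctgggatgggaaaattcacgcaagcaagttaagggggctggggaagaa
Psmb8, chr17:34197945-34198194, plus strand: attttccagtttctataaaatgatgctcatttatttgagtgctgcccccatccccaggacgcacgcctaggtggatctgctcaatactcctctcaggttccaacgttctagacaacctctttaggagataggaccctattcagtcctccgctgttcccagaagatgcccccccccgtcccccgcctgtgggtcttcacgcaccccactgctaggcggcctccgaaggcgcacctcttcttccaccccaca
The H2-K1 and H2-D1 windows share a run of 47 identical bases, which contains the matches to the kappaB consensus, and both hold all 4 kinds of motif in the same order. B2m, which lies on chromosome 2 and pairs with both heavy chains, also holds all 4, with its kappaB and IRF matches in the other order. The Tap1 window overlaps that of Psmb9, which is read in the opposite direction, by 225 bases, so both genes share the TGACG and CCAAT matches printed for Tap1. In the Psmb8 window none of these letters was found, and a match or its absence is a description of the sequence only. Tapbp held CCAAT matches alone and the Erap1 window held no match. The H2-K1 and Erap1 windows lie inside the spans of these genes given below. Another H2-K1 window, at 34000348 to 34000597, held 1 CCAAT match, against 2 in the printed one.

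Few genes of the class I machinery differed between the groups beyond the spread of the libraries. By limma, fitted to log2(TPM + 1) over the 15629 genes that reached 1 TPM in 3 or more libraries and adjusted by Benjamini-Hochberg over all of them, 1 of the 10 genes, Psmb8, rose and 0 fell in the CCl4 libraries at an adjusted p under 0.05. Over all genes tested 15.3% were called higher and 22.5% lower, 37.8% in all. At an unadjusted p under 0.05 the same fit named 4 of the 10, Psmb8 and Tap1 upward and B2m and Erap1 downward. The groups overlapped for each of the 10 genes, whereas they did not overlap for 36.9% of all genes tested. The median log2 fold change of the 10 was -0.03, against -0.06 for all genes tested.

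The H2-K1 heavy chain, which binds the peptide (GRCm38 chromosome 17, 33996012 to 34000619), had 1023, 1437 and 1019 TPM in CCl4 replicates 1, 2-4 and 3, against 1038, 1237, 1252, 1019.9 and 1475 TPM in naive replicates 1 to 5. The groups covered nearly the same range, with CCl4 replicate 2-4 and naive replicate 5 the highest. The log2 fold change was -0.06 (SE 0.188, limma adjusted p = 0.831), with a 95% interval of -0.48 to 0.36. H2-D1, the other classical heavy chain (chromosome 17, 35263094 to 35267497), had 1505, 1969.8 and 1514 TPM in CCl4 replicates 1, 2-4 and 3, against 1622, 2009.6, 1830.5, 1509 and 2219 TPM in naive replicates 1 to 5. The same pair of libraries was highest and the groups again overlapped. Its log2 fold change was -0.14 (SE 0.188, limma adjusted p = 0.591), with an interval of -0.56 to 0.27. The ratio of H2-K1 to H2-D1 was 0.673 to 0.729 in the CCl4 libraries and 0.615 to 0.684 in the naive libraries (log2 difference 0.08, exact two-sided permutation p = 0.179). H2-K1, H2-D1 and the H2-Q and H2-T genes are closely related in sequence, so the authors' quantification could divide reads between them, and their separate values are uncertain for that reason.

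B2m, the light chain without which heavy chains do not reach the surface (chromosome 2, 122147687 to 122153082), had 1869.5, 849 and 1268 TPM in CCl4 replicates 1, 2-4 and 3, against 2048, 2179, 1915, 1922 and 1579 TPM in naive replicates 1 to 5. CCl4 replicates 2-4 and 3 lay below every naive library, and CCl4 replicate 1 lay within the naive range. The means were 1329 ± 513 TPM in the CCl4 libraries and 1929 ± 223 TPM in the naive libraries (SD, n = 3 and 5). The log2 fold change of -0.60 (SE 0.241, interval -1.14 to -0.07) missed the threshold (limma adjusted p = 0.0734). It passed, at -0.89, without CCl4 replicate 1 (adjusted p = 0.0103), and at -0.67 without naive replicate 5 (adjusted p = 0.0482). Without CCl4 replicate 2-4, the lowest library, it was -0.32 (adjusted p = 0.287). B2m relative to the sum of H2-K1 and H2-D1 was 0.740, 0.249 and 0.500 in CCl4 replicates 1, 2-4 and 3, against 0.770, 0.671, 0.621, 0.760 and 0.427 in naive replicates 1 to 5. The ratio spread widely among the CCl4 libraries and overlapped the naive range (exact permutation p = 0.321). In CCl4 replicate 2-4, where the heavy chains were highest among the CCl4 libraries, B2m was lowest.

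**Figure D1:**
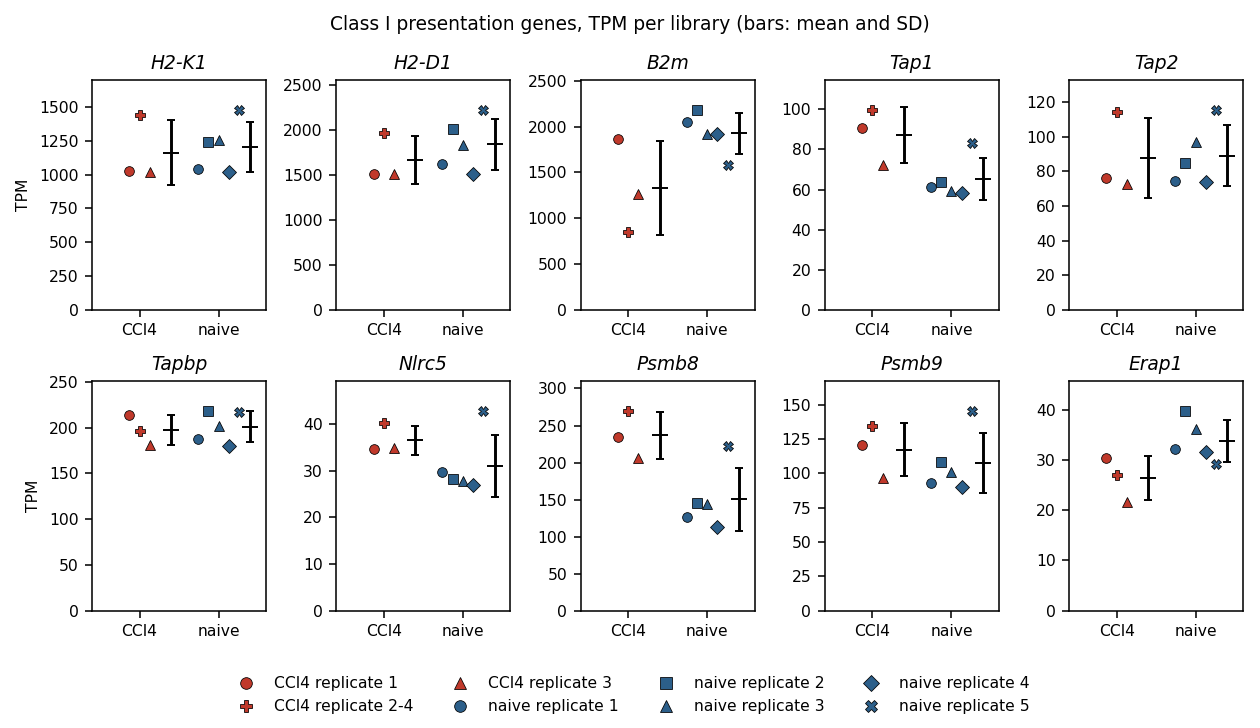
TPM of each of the 10 genes in the 3 CCl4 libraries (red, left) and the 5 naive libraries (blue, right), 1 symbol per library, with mean and SD as bars and a separate linear axis from 0 for each gene. The groups overlap in every panel; Psmb8 is at 206 to 269 TPM in the CCl4 libraries and 113 to 222 TPM in the naive libraries.

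The transporter is a dimer of Tap1 and Tap2, and the ratio of their transcripts did not overlap between the groups. Tap1 (chromosome 17, 34187556 to 34197225) had 90.5, 99.6 and 72.1 TPM in CCl4 replicates 1, 2-4 and 3, against 61.3, 63.8, 59.5, 58.1 and 83.4 TPM in naive replicates 1 to 5. Every CCl4 library lay above naive replicates 1 to 4, and naive replicate 5 lay among the CCl4 libraries. The log2 fold change was 0.42 (SE 0.161, interval 0.06 to 0.77) and missed the threshold with all libraries (limma adjusted p = 0.0637), while without naive replicate 5 it was 0.51 (adjusted p = 0.0143). Tap2 (chromosome 17, 34204479 to 34216321) had 76.3, 114 and 72.7 TPM in CCl4 replicates 1, 2-4 and 3, against 74.7, 84.8, 97.3, 73.7 and 115 TPM in naive replicates 1 to 5. Both groups covered nearly the same range, and the log2 fold change was -0.03 (SE 0.197, interval -0.47 to 0.40, limma adjusted p = 0.918). The ratio of Tap1 to Tap2 was 1.19, 0.870 and 0.992 in CCl4 replicates 1, 2-4 and 3, against 0.821, 0.752, 0.612, 0.788 and 0.723 in naive replicates 1 to 5. Every CCl4 ratio was above every naive one, and the exact permutation p of 0.0357 was the smallest that the 56 splits allow, but adjusted over the 10 ratios computed it was 0.0714. Tapbp, which encodes tapasin (chromosome 17, 33919478 to 33929290), had 214, 197 and 181 TPM in CCl4 replicates 1, 2-4 and 3, against 187, 218, 201, 180.4 and 217 TPM in naive replicates 1 to 5. The groups overlapped almost fully, and its log2 fold change was -0.03, with the smallest SE of the 10 genes (SE 0.127, interval -0.31 to 0.26, limma adjusted p = 0.899). Relative to Tap1 and Tap2 together, Tapbp was 0.919 to 1.28 in the CCl4 libraries and 1.09 to 1.47 in the naive libraries (exact permutation p = 0.25).

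Psmb8 encodes LMP7, an interferon-inducible catalytic subunit that replaces Psmb5 when the standard proteasome is remade as the immunoproteasome (chromosome 17, 34198195 to 34201454). It had 235, 269 and 206 TPM in CCl4 replicates 1, 2-4 and 3, against 127, 145, 145, 113 and 222 TPM in naive replicates 1 to 5. The CCl4 libraries lay above naive replicates 1 to 4, and naive replicate 5 fell between CCl4 replicates 3 and 1. Psmb8 averaged 237 ± 31.6 TPM in the CCl4 libraries and 150.2 ± 42.3 TPM in the naive libraries (SD, n = 3 and 5), with a log2 fold change of 0.68 (SE 0.206, interval 0.23 to 1.14, limma adjusted p = 0.0230). The call sat close to the threshold: the adjusted p was 0.0874 without CCl4 replicate 2-4, 0.0552 without CCl4 replicate 1, 0.0516 without naive replicate 1 and 0.0507 without naive replicate 4, with the log2 fold change at 0.59, 0.69, 0.63 and 0.59. It stood at 0.84 (adjusted p = 0.00122) without naive replicate 5. Relative to Psmb5, Psmb8 was 3.05, 4.28 and 3.38 in CCl4 replicates 1, 2-4 and 3, against 1.98, 1.88, 1.86, 1.61 and 2.76 in naive replicates 1 to 5. This ratio did not overlap between the groups (log2 difference 0.83, exact permutation p = 0.0357, adjusted p = 0.0714 over the 10 ratios).

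The other catalytic immunosubunits did not pass the threshold. Psmb9, which encodes LMP2 and replaces Psmb6 (chromosome 17, 34182030 to 34187330), had 120.4, 135 and 96.7 TPM in CCl4 replicates 1, 2-4 and 3, against 93.4, 108, 101, 90.3 and 145 TPM in naive replicates 1 to 5. The highest and the lowest value both belonged to naive libraries, and the log2 fold change was 0.13 (SE 0.179, interval -0.26 to 0.53, limma adjusted p = 0.602). Psmb9 relative to Psmb6 was 1.34 to 1.84 in the CCl4 libraries and 1.18 to 1.91 in the naive libraries (exact permutation p = 0.464), and Psmb10 relative to Psmb7, the third such pair, was 0.541 to 0.783 in the CCl4 libraries and 0.690 to 0.780 in the naive libraries (exact permutation p = 0.214). Psmb9 and Tap1 share the promoter printed above, and their starts lie 226 bases apart. The ratio of Psmb9 to Tap1 was 1.33, 1.35 and 1.34 in CCl4 replicates 1, 2-4 and 3, against 1.52, 1.69, 1.70, 1.55 and 1.74 in naive replicates 1 to 5. It was lower in every CCl4 library than in any naive one and closely alike among the CCl4 libraries (log2 difference -0.29, exact permutation p = 0.0357, adjusted p = 0.0714).

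**Figure D2:**
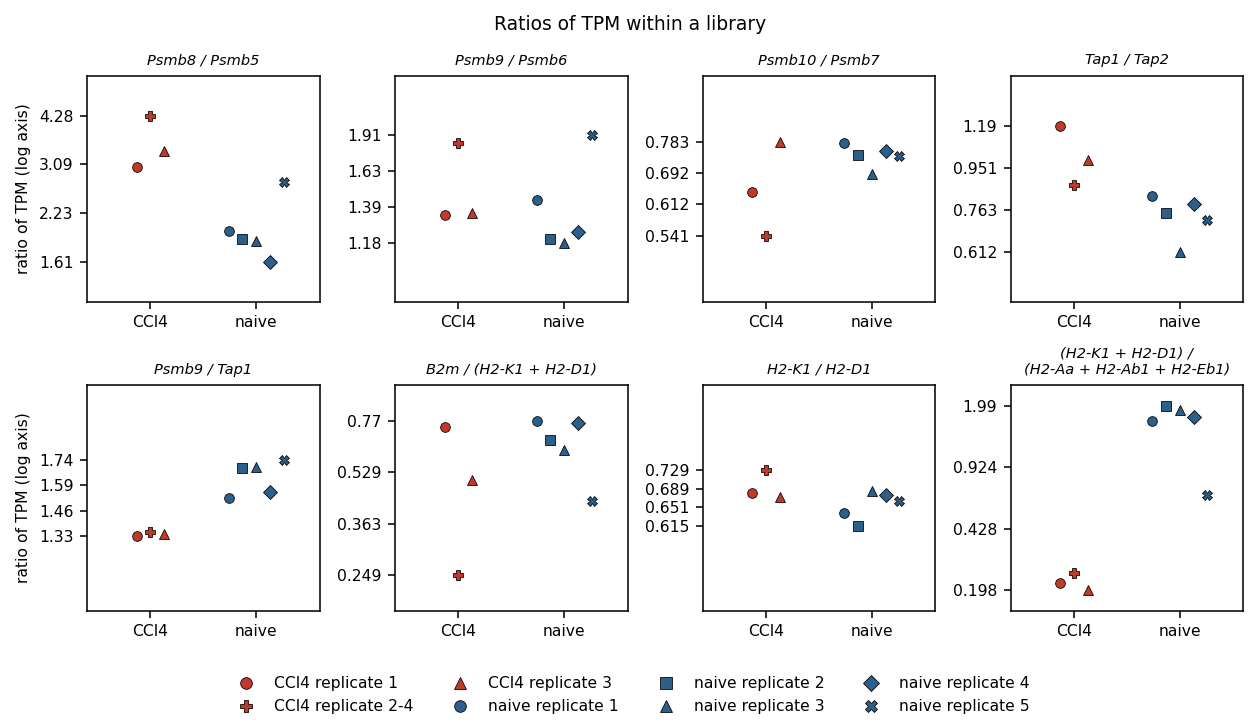
Within-library ratios of TPM on log axes, 1 symbol per library, CCl4 left (red) and naive right (blue). The groups do not overlap for Psmb8 to Psmb5, Tap1 to Tap2, Psmb9 to Tap1 and heavy chains to class II chains, and they overlap in the other 4 panels.

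Erap1 encodes the endoplasmic reticulum aminopeptidase that trims peptides to the length class I molecules bind (chromosome 13, 74639573 to 74693205). It had 30.4, 27.0 and 21.7 TPM in CCl4 replicates 1, 2-4 and 3, against 32.2, 39.7, 36.2, 31.6 and 29.2 TPM in naive replicates 1 to 5. CCl4 replicates 2-4 and 3 were below every naive library and CCl4 replicate 1 was above naive replicate 5. The log2 fold change was -0.35 (SE 0.154, interval -0.69 to -0.01, limma adjusted p = 0.1001).

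Nlrc5, the coactivator of class I genes that binds no DNA itself (chromosome 8, 94434335 to 94527272), had 34.6, 40.1 and 34.8 TPM in CCl4 replicates 1, 2-4 and 3, against 29.7, 28.1, 27.7, 26.8 and 42.7 TPM in naive replicates 1 to 5. As for Tap1 and Psmb8, naive replicates 1 to 4 formed a narrow band below the CCl4 libraries and naive replicate 5 stood above that band. With all libraries the log2 fold change was 0.25 (SE 0.168, interval -0.13 to 0.62, limma adjusted p = 0.281), and without naive replicate 5 it was 0.36 (adjusted p = 0.0381). On transcripts matched with their version it was 0.62 (adjusted p = 0.174). Among 7942 genes averaging at least 10 TPM, those whose log2 values followed Nlrc5 most closely over the 8 libraries were Bcl2a1a, Traf1, Batf3, Tars2 and Snx22 (Pearson's r 0.981, 0.947, 0.943, 0.934 and 0.933). Bcl2a1a had 9.70, 19.4 and 14.2 TPM in CCl4 replicates 1, 2-4 and 3 and 25.4 TPM in naive replicate 5, against 3.89 to 5.67 TPM in naive replicates 1 to 4. The CCl4 libraries and naive replicate 5 stood in the same order as for Nlrc5, and naive replicates 1 to 4 in another order. For B2m the closest were Pon3, Atp6v1e1, Bsg, Cyb5r1 and Stk16 (r 0.991, 0.990, 0.989, 0.987 and 0.983), each lowest in CCl4 replicate 2-4. These correlations describe the 8 libraries, which share 2 groups and a common scaling, and carry no p.

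TPM are per length, so the genes can be ordered by level. In the CCl4 libraries the mean ran from H2-D1 and B2m through H2-K1, Psmb8, Tapbp, Psmb9, Tap2, Tap1 and Nlrc5 to Erap1, and in the naive libraries from B2m and H2-D1 through H2-K1, Tapbp, Psmb8, Psmb9, Tap2, Tap1 and Erap1 to Nlrc5. Neighbours that changed places between libraries of a group were H2-D1 and B2m, B2m and H2-K1, and Tap2 and Tap1 in the CCl4 libraries, and B2m and H2-D1, Tapbp and Psmb8, and Erap1 and Nlrc5 in the naive libraries. Psmb8 was above Tapbp in 3 of 3 CCl4 libraries, while Tapbp was above Psmb8 in 4 of 5 naive libraries. Nlrc5 was above Erap1 in 3 of 3 CCl4 libraries, and Erap1 was above Nlrc5 in 4 of 5 naive libraries.

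The 10 genes together held 5198, 5138 and 4485 TPM in CCl4 replicates 1, 2-4 and 3, against 5313, 6113, 5666, 5026 and 6129 TPM in naive replicates 1 to 5, a difference of -0.19 in mean log2 sum with the groups overlapping. Rescaled to the protein-coding TPM of each library, the sums were 9280, 10245 and 9454 in the CCl4 libraries and 10911 to 13466 in the naive libraries, without overlap. H2-K1, H2-D1 and B2m made up 82.8% to 84.7% of the sum in the CCl4 libraries and 86.1% to 88.8% in the naive libraries, again without overlap. H2-K1, H2-D1, Tap1, Tap2, Nlrc5, Psmb8 and Psmb9, 7 of the 10, were highest in CCl4 replicate 2-4 among the CCl4 libraries and in naive replicate 5 among the naive libraries. The share of all genes tested that were highest in the same libraries was not counted. The pattern can therefore not be read as particular to these genes. CCl4 replicate 2-4 also had the highest sum of 12 T and NK cell markers in its group, 339 TPM, against 119 and 99.3 TPM in CCl4 replicates 1 and 3 and 233 to 325 TPM in the naive libraries. Gzma held 117 TPM of the 339 TPM. Of the 12 markers 0 were called higher and 3 lower in the CCl4 libraries by limma, namely Cd3e, Cd3d and Cd3g. These 3 had 6.53, 4.94 and 5.96 TPM in CCl4 replicate 2-4, each below every naive library. CCl4 replicate 2-4 was also highest among the CCl4 libraries in B cell markers, at 159 TPM against 69.9 and 67.1 TPM, in sinusoidal endothelium markers, at 757 TPM against 305 and 506 TPM, and in dendritic cell markers, at 387 TPM against 255 and 324 TPM, in CCl4 replicates 1 and 3. Naive replicate 5 had 308 TPM of the T and NK cell markers, within the range of its group. The part of these cells in the class I values was not tested.

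H2-K1 was listed as 8 RefSeq transcripts, of which 5 reached 1 TPM in at least 3 libraries, and its total, which did not pass the threshold, was made up of transcripts that differed in opposite directions. The curated transcript NM_001001892.2 had 335, 138 and 217 TPM in CCl4 replicates 1, 2-4 and 3, against 460.3, 613, 619, 443 and 737 TPM in naive replicates 1 to 5. Every CCl4 library was below every naive one. A limma fit to 29401 transcripts, added after seeing the data, put it at -1.38 on the log2 scale (SE 0.284, adjusted p = 0.00901), and -1.70 to -1.06 with each library left out in turn, past the threshold each time. The predicted transcript XM_006523676.3 had 487, 888 and 579.8 TPM in CCl4 replicates 1, 2-4 and 3, against 402, 461, 453, 441 and 547 TPM in naive replicates 1 to 5 (log2 fold change 0.46, adjusted p = 0.142). The low predicted transcript XM_017317259.1 had 26.6, 47.5 and 43.1 TPM in CCl4 replicates 1, 2-4 and 3, against 9.82, 11.1, 11.9, 8.41 and 16.9 TPM in naive replicates 1 to 5, with every CCl4 library higher (log2 fold change 1.66, SE 0.257, adjusted p = 0.00221). The share of H2-K1 TPM in NM_001001892.2 was 21.2% ± 11.6 in the CCl4 libraries and 47.4% ± 3.19 in the naive libraries (SD, n = 3 and 5). Of 20 member transcripts in this fit 1 was lower and 1 higher, both of H2-K1, where 20.1% of all transcripts tested were called. The division of reads among near-identical transcripts is an estimate by the quantifier, and TPM keep no measure of its uncertainty. H2-D1, B2m, Tap2 and Psmb8 were each listed as 1 transcript.

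**Figure D3:**
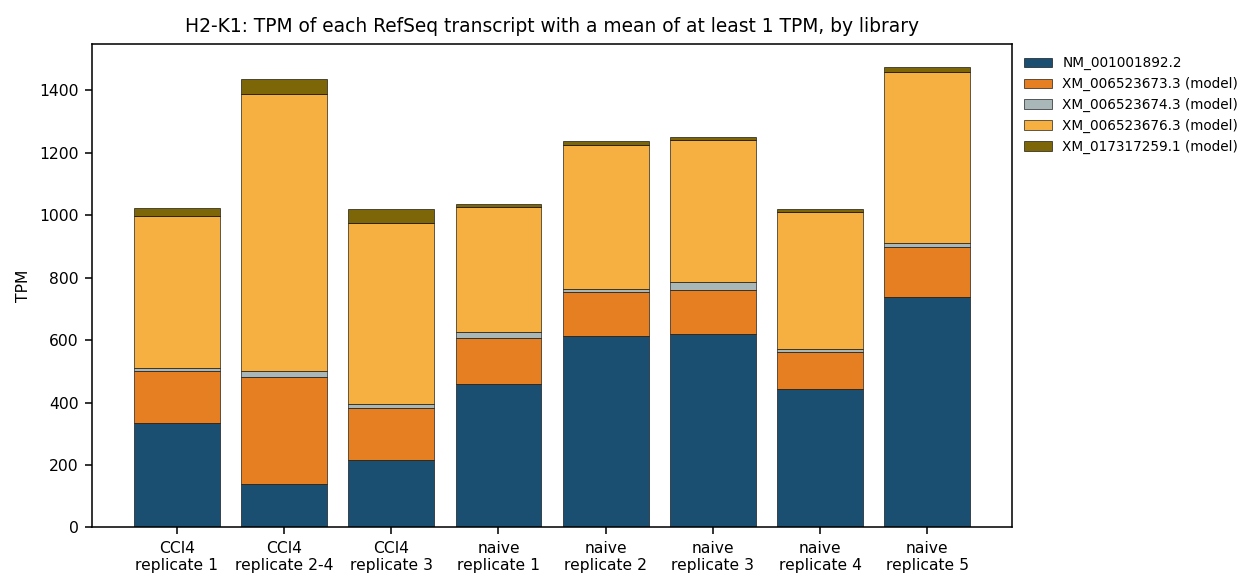
Stacked TPM of the 5 H2-K1 transcripts with a mean of at least 1 TPM, CCl4 libraries left and naive libraries right. The curated transcript (dark blue) fills 9.61% to 32.8% of the H2-K1 total in the CCl4 libraries and 43.4% to 50.0% in the naive libraries, while the height of the bars overlaps.

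Around the 10 genes, 87 further genes of the class I pathway in 9 lists were examined, of which 80 could be tested, 14 rose and 11 fell in the CCl4 libraries, with a median log2 fold change of -0.03. Without naive replicate 5, 16 rose and 12 fell. Over all genes tested 37.8% were called with all libraries. Without naive replicate 5 the fit called 2568 of 15475 genes higher and 4170 lower. The called share varied among the lists. The lists, like the 10 genes, were set with earlier results of these data known.

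Of the other class I heavy chains, 1 rose, 3 fell and 6 of 10 tested were not called, a called share close to the 37.8% of all genes tested. H2-T23, which encodes Qa-1, a ligand of the inhibitory NK receptor CD94-NKG2A, was the most abundant, at 535 ± 120 TPM in the CCl4 libraries and 618 ± 79.4 TPM in the naive libraries (limma adjusted p = 0.363). H2-T24 fell (log2 fold change -1.03, SE 0.189, adjusted p = 0.00151), with 54.0, 47.5 and 35.5 TPM in CCl4 replicates 1, 2-4 and 3 and 68.5 to 110.1 TPM in the naive libraries. H2-Q10, a secreted class I molecule made by the liver, fell by 1.41 on the log2 scale (adjusted p = 0.00352), and H2-Q4 fell by 0.68 (adjusted p = 0.0197). H2-Q10 moved beside hepatocyte markers, 7 of 10 of which fell (8 without naive replicate 5). Their sum overlapped, at 204 to 868 TPM in the CCl4 libraries and 598 to 1434 TPM in the naive libraries. Alb, the most abundant, was not called (limma adjusted p = 0.0561), at 113 to 537 TPM in the CCl4 libraries and 336 to 749.8 TPM in the naive libraries. The part of these markers' cells in H2-Q10 was not tested. H2-M3, which presents N-formylated bacterial peptides, rose by 0.46 (adjusted p = 0.0316), with no overlap between groups.

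Class I-like molecules, which share the fold and mostly pair with beta-2 microglobulin, had the lowest median log2 fold change of the 9 lists, -1.24: 3 of 4 tested fell and 0 rose (limma), and 4 fell without naive replicate 5. With all libraries 22.5% of all genes tested were called lower. Fcgrt, the neonatal Fc receptor that rescues IgG and albumin from degradation, had 109.6, 112 and 113 TPM in CCl4 replicates 1, 2-4 and 3, against 420.5, 540.1, 516, 399 and 334 TPM in naive replicates 1 to 5. The groups were far apart (log2 fold change -1.96, SE 0.168, limma adjusted p = 9.35e-06). Cd1d1, which presents lipids to NKT cells, fell by 1.40 (adjusted p = 0.00230), and Hfe, which regulates iron uptake, fell by 0.64 (adjusted p = 0.0261). Sinusoidal endothelium, whose markers had a median log2 fold change of -4.44 in the same libraries, is also known to express Fcgrt, and its part in these values was not tested.

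Few genes of the proteasome and the loading chaperones passed the threshold, where 37.8% of all genes tested did. Of 11 structural core subunits of the proteasome and the 3 standard catalytic subunits, 0 were called in either direction by limma, and their log2 fold changes lay between -0.37 and 0.19. Psme1, part of the interferon-inducible activator that opens the core, averaged 354 ± 67.6 TPM in the CCl4 libraries and 259 ± 46.9 TPM in the naive libraries (log2 fold change 0.45, adjusted p = 0.0717), and 0 of the 6 genes of its list passed the threshold, against 1 of 6 without naive replicate 5. Of 7 chaperones that fold and load class I molecules 1 rose, Hspa5, which encodes BiP, the general chaperone of the endoplasmic reticulum (log2 fold change 0.61, adjusted p = 0.0382), and calreticulin, Calr, stood at 591 ± 35.3 TPM in the CCl4 libraries and 678 ± 167 TPM in the naive libraries (adjusted p = 0.551). Lnpep, the endosomal insulin-regulated aminopeptidase, was the 1 of 6 other peptidases that rose, by 0.61 (SE 0.141, adjusted p = 0.00577).

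Regulators of class I transcription moved in both directions, with 7 higher, 3 lower and 14 of 24 not called, a called share close to the 37.8% of all genes tested. Without naive replicate 5, 8 were higher and 3 lower. Ifngr1, the ligand-binding chain of the interferon gamma receptor, had 251, 243 and 242 TPM in CCl4 replicates 1, 2-4 and 3, against 142, 157, 96.5, 112 and 132 TPM in naive replicates 1 to 5 (log2 fold change 0.96, adjusted p = 0.00100). Jak1, a kinase that this receptor signals through, had 53.0, 58.9 and 46.1 TPM in CCl4 replicates 1, 2-4 and 3, against 190.0, 207, 256, 199 and 161 TPM in naive replicates 1 to 5 (log2 fold change -1.92, adjusted p = 7.96e-06). Ifngr1 and Jak1 thus differed in opposite directions, each without overlap. The related kinases Jak2 and Tyk2 had log2 fold changes of 0.46 and 0.63 (limma adjusted p = 0.0871 and 0.00156). Ifngr2, the other chain of this receptor, rose by 0.61 (limma adjusted p = 0.0121). Socs1, the feedback inhibitor of that pathway, fell by 1.50 (adjusted p = 0.000120), Irf1 fell by 0.52 (adjusted p = 0.0159), and Nfkb1, a subunit of the factor that binds the kappaB site, rose by 0.83 (adjusted p = 0.000711).

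Among 9 genes used to present engulfed antigen on class I, 4 rose and 2 fell, where 15.3% of all genes tested were called higher and 22.5% lower. Cybb, the oxidase subunit that limits degradation in phagosomes, rose by 1.44 (limma adjusted p = 0.00121) and Wdfy4, needed for cross-presentation by dendritic cells, rose by 1.42 (adjusted p = 0.00294). Clec9a, a receptor for dead cells that is also among the dendritic cell markers used here, fell by 1.44 (adjusted p = 0.00167). Those 8 markers summed to 255 to 387 TPM in the CCl4 libraries and 161 to 208 TPM in the naive libraries, with 2 higher and 2 lower, or 3 higher and 2 lower without naive replicate 5, and their part in this list was not tested.

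**Figure D4:**
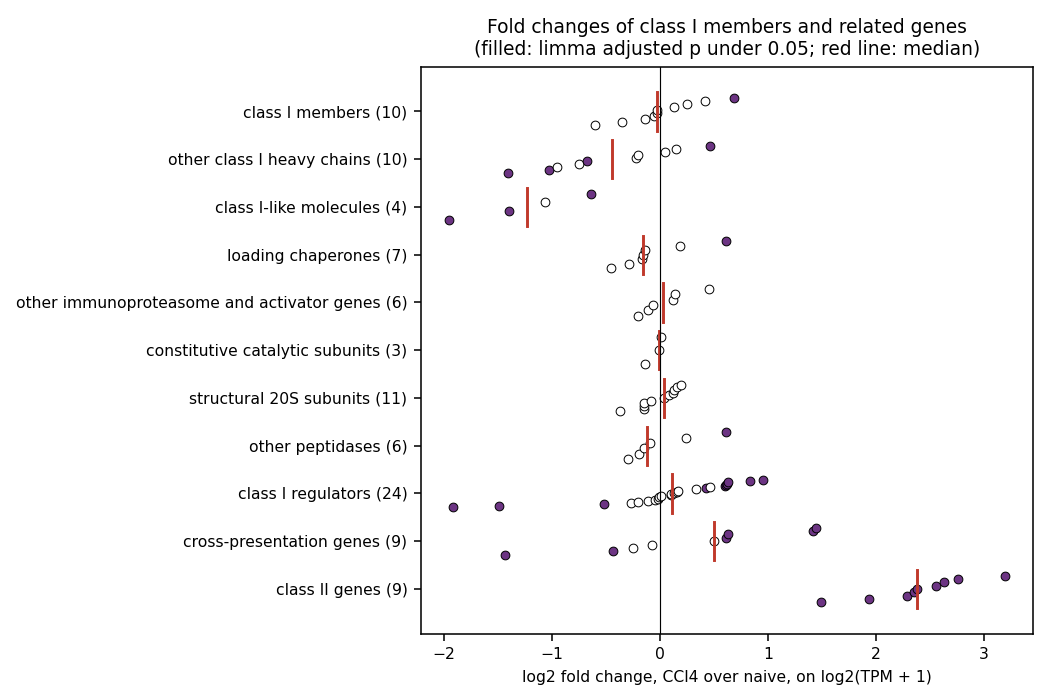
Log2 fold changes, CCl4 over naive, of the 10 genes, of the related lists and of class II genes, 1 point per gene, filled where the limma adjusted p is under 0.05, with the list median as a red line. The 10 genes spread around a median of -0.03 with 1 filled point, and all 9 class II genes lie to the right of 0 and are filled.

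The class II pathway, which presents engulfed proteins to CD4 T cells, was measured in the same libraries. All 9 class II genes rose by limma, with a median log2 fold change of 2.38, where 15.3% of all genes tested were called higher. The sum of H2-K1 and H2-D1 relative to the sum of the class II chains H2-Aa, H2-Ab1 and H2-Eb1 was 0.217, 0.247 and 0.198 in CCl4 replicates 1, 2-4 and 3, against 1.65, 1.99, 1.89, 1.73 and 0.649 in naive replicates 1 to 5. Class I chains were below class II chains in every CCl4 library and in naive replicate 5, and above them in naive replicates 1 to 4. The ratio in naive replicate 5 lay between those of the CCl4 libraries and those of the other naive libraries. With all libraries the log2 difference was -2.75 (exact permutation p = 0.0357, adjusted p = 0.0714 over the 10 ratios), and it was -3.04 without naive replicate 5. For the coactivators of class I and class II genes, the ratio of Nlrc5 to Ciita was 0.221, 0.172 and 0.141 in CCl4 replicates 1, 2-4 and 3, against 2.04, 1.70, 1.64, 1.59 and 0.622 in naive replicates 1 to 5 (log2 difference -3.01, or -3.31 without naive replicate 5, exact permutation p = 0.0357, adjusted p = 0.0714). Ciita itself averaged 212 ± 48.5 TPM in the CCl4 libraries and 26.7 ± 23.5 TPM in the naive libraries, while Nlrc5 averaged 36.5 ± 3.15 TPM in the CCl4 libraries and 31.0 ± 6.62 TPM in the naive libraries (SD, n = 3 and 5).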

How the data were processed

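Kupffer cell RNA was sequenced in 3 CCl4 and 5 naive libraries from 1.5 ug of total RNA with a directional kit, per the labels' protocols. The authors deposited TPM for each RefSeq transcript, per the file headers. Kallisto 0.42.4 and GRCm38 are named in the submitters' processing notes. Trimming, index and strand settings are not given in the labels used here. Depth cannot be recovered from TPM, so precision came from the spread between libraries. Because the total is fixed, a gene's TPM also depends on the noncoding share of the library, which the rescaling alternatives address.

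Of 107384 transcripts, 86722 matched a RefSeq gene table of GRCm38.p6 by accession without version (46184 with it) and were summed to 32903 genes; the 20662 unmatched ones held 6.06% to 7.58% of TPM. H2-M2 and Nrdc had no matched transcript and were not analysed here. Genes reaching 1 TPM in 3 or more libraries were fitted on log2(TPM + 1), which understates the change of low genes, with limma 3.58.1 in R 4.3.3 (eBayes with an intensity trend, group only), Benjamini-Hochberg adjustment and a threshold of 0.05. Ratios were compared by exact two-sided permutation over 56 splits. The fit was tested on simulated data.

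The members and gene lists were chosen with earlier results of these data known. Named genes were the 10 members, the genes of the ratios, and from each list the 2 most abundant and up to 4 called with the smallest adjusted p. Alternatives were other pseudocounts (0.1 and 5), filters, scalings, variance settings, library weights, transcript matching, a replicate block and leaving out each library. A transcript-level fit, the share of 1 H2-K1 transcript and list counts without naive replicate 5 were added after seeing the data. No pair of libraries shared more than 1 identical TPM above 0 among the tested genes. Promoter sequences are from RefSeq, and 8 of the 10 genes had a window.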

Additional observations from a re-analysis of the deposited data

Results flagged for a closer look

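Among 22 quantities examined in the 5 naive libraries, 3 had 1 library whose gap to the nearest other exceeded Dixon's 95% critical value of 0.71 of the range, and chance gives about 1 in 20. All 3 concern naive replicate 5. Tap1 was 83.4 TPM there and 58.1 to 63.8 TPM in naive replicates 1 to 4, and Nlrc5 was 42.7 TPM and 26.8 to 29.7 TPM. The ratio of H2-K1 plus H2-D1 to the class II chains was 0.649 there and 1.65 to 1.99 in the others. Each value moved toward or past the CCl4 libraries, which had 72.1 to 99.6 TPM of Tap1, 34.6 to 40.1 TPM of Nlrc5 and ratios of 0.198 to 0.247.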

How the results depend on the processing

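Under 21 other settings the number of the 10 genes called higher in CCl4 (1, Psmb8) was 0 without a filter, 2 with median-of-ratios rescaling, quantile normalization or library weights (Psmb8 and Tap1), and 0 to 3 with 1 library left out, 3 being Psmb8, Tap1 and Nlrc5 without naive replicate 5. The number called lower (0) was 2 on protein-coding genes (B2m and Erap1), 1 with median-of-ratios (Erap1), 2 with quantile normalization (B2m and H2-D1), 1 with weights (B2m), 1 on version-matched transcripts (H2-K1), 2 on curated transcripts (H2-K1 and Erap1) and 0 to 1 with 1 library left out, B2m being called without CCl4 replicate 1 or naive replicate 5. On curated or version-matched transcripts H2-K1 is NM_001001892.2 alone, its log2 fold change is -1.38 (adjusted p = 0.00402 and 0.00361) and its ratio to H2-D1 -1.24; the summed TPM difference was -0.34 and -0.33, and Nlrc5 to Ciita on version-matched transcripts was -1.98. Curated transcripts gave no value for Nlrc5 or its ratio to Ciita, and version-matched ones none for Erap1 or the ratio to class II chains.

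Psmb8 kept its direction throughout (0.59 to 0.84), with adjusted p = 0.0511 without a filter. Over all settings the log2 fold change of B2m ran from -0.97 to -0.32, H2-D1 from -0.60 to -0.06, Erap1 from -0.52 to -0.22, Tap1 from 0.32 to 0.55, Nlrc5 from 0.18 to 0.62 and Psmb9 from 0.03 to 0.26. Fold changes that crossed 0 were all small and uncalled: H2-K1 at 0.018 with median-of-ratios and -0.225 to 0.0231 with 1 library left out; Tap2 at 0.0454, 0.073 and 0.0243 with median-of-ratios, quantile normalization and weights; Tapbp at 0.0528, 0.0005 and 0.0103 there and 0.018 with the replicate block. With 1 library left out Tap2 ran from -0.2365 to 0.0872 and Tapbp from -0.0852 to 0.0346. Among the wider class I genes, 11 lower became 7 to 12 with 1 library left out, 7 without CCl4 replicate 3. Quantile normalization moved the median of all genes to 0.11 and called 4011 higher and 3086 lower, against 2393 and 3513. Without naive replicate 5, 2568 of 15475 genes were called higher and 4170 lower.

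The groups share only the replicate numbers 1 and 3, whose deviations correlated at 0.08 and -0.04. Libraries with unlike numbers ran from -0.12 to 0.16. So few pairs cannot show whether the numbers pair the libraries. The replicate block takes its group difference from replicates 1 and 3 of each group alone. With it 0 of the 10 genes were called higher (Psmb8 0.70, limma adjusted p = 0.0545, and B2m -0.36, adjusted p = 0.417), and 6 wider class I genes, against 14. The causes were not tested. Without counts, no depth limit could be set.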
